A study of Homo sapiens with 6 samples.

Results

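Histone chaperones escort histones that are not bound to DNA and place them on it or take them off. The 8 examined here were HIRA, DAXX, ATRX, ASF1A, ASF1B, CHAF1A, CHAF1B and SSRP1. They were chosen, with earlier results of these data known, by their symbols in the gene column of a table of CRISPR guide counts. Each had 10 guides, and all 80 passed the filter on low library counts (a mean library count of 30 or more), so the 8 genes stand among 7090 genes tested with 3 or more guides. The cells were HAP1, a human line of leukaemic origin with nearly 1 copy of each chromosome. There were 2 samples of SETD2-mutant HAP1 cells, 2 of parental HAP1 cells, and 2 of the guide library against which both lines were set. SETD2 places the trimethyl mark on lysine 36 of histone H3 (H3K36) along transcribed genes. Both lines received guide virus at a multiplicity of infection of 0.7, were divided into replicates 48 hours later and grew under puromycin for 12 doublings. Replicates of a line therefore came from 1 transduction, and the p-values rest on the spread among these 6 samples alone. How many SETD2-mutant clones were used and how the library was sampled are not given in the sources used here.

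New nucleosomes are built along several routes. CAF-1, made of CHAF1A, CHAF1B and RBBP4, deposits H3 and H4 behind replication forks, where it is held by the sliding clamp PCNA. HIRA, with its partners UBN1 and CABIN1, deposits the variant H3.3 outside replication, mainly in transcribed chromatin, while DAXX with the remodeller ATRX deposits H3.3 in heterochromatin and at telomeres. The paralogs ASF1A and ASF1B carry H3 and H4 and hand them to HIRA and CAF-1. SSRP1 and SUPT16H form FACT, which loosens and restores nucleosomes ahead of and behind polymerases.

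Sample totals ran from 25082426 to 38428425 counts, with SETD2-mutant replicate 1 the lowest, and median counts per guide from 284 to 466. Library counts of the 80 chaperone guides lay between 216 and 2825. Levels below are CPM, guide counts set relative to the TMM-scaled total of the sample, summed over the 10 guides of a gene. They describe guide abundance, not expression. A change is the mean over guides of the log2 fold change from edgeR, its standard error (SE) is taken over the guides, and a negative change means that cells carrying the guides became rarer. Genes were called depleted or enriched by robust rank aggregation (RRA) of the guide p-values, at a p below 0.05 after adjustment over all 7090 genes. Guide counts do not read the genotype, so the SETD2 status of the cells was taken from the labels.

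The comparisons of each line with the library ask which gene losses the cells tolerated poorly during growth. In SETD2-mutant cells 5 of the 8 chaperones were depleted, namely HIRA, DAXX, ATRX, CHAF1A and SSRP1, where 9.04% of all genes were. In parental cells 6 of 8 were depleted, these 5 and CHAF1B, where 9.90% of all genes were. ASF1A and ASF1B were called in neither line. None of the 8 was enriched by edgeR and RRA in either line, where 1.11% of all genes were in SETD2-mutant and 1.11% in parental cells. Of the 8, 0 in SETD2-mutant and 1 in parental cells (ASF1B) had an unadjusted p for enrichment under 0.05, not counted over all genes. Limma on gene means called 38.1% of all genes depleted in SETD2-mutant and 31.5% in parental cells, and edgeR on counts summed per gene called 32.7% and 30.3%, so calls by either are read against those shares. The median change of the 8 genes was −1.62 in SETD2-mutant cells, where that of all genes was −0.05, and −1.50 in parental cells, where that of all genes was −0.01. Both lines were compared with the same library samples. Among single guides, edgeR called 53 of the 80 lower and 6 higher in SETD2-mutant cells, where it called 23.7% of all guides lower and 22.2% higher. In parental cells it called 56 lower and 5 higher, where it called 21.1% of all guides lower and 18.9% higher.

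**Figure D1:**
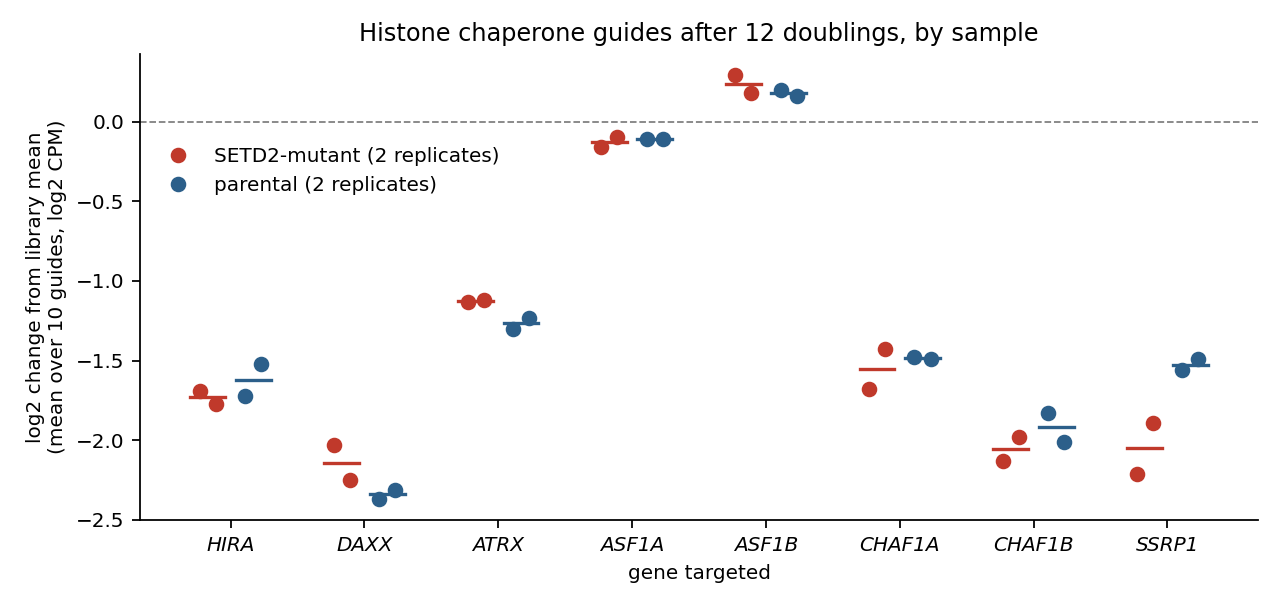
Log2 change from the library mean (vertical axis, mean over 10 guides of log2 CPM) for each chaperone gene (horizontal axis) in the 2 SETD2-mutant and 2 parental samples, with bars at the mean of the 2 replicates. DAXX lies lowest in parental cells, at −2.37 and −2.31, and ASF1A and ASF1B lie between −0.16 and 0.29 in all 4 samples.

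Among the H3.3 chaperones, DAXX (chromosome 6, 33318558 to 33322959, GRCh38.p14, as are all coordinates here) showed the deepest parental loss of the 8. Its guides summed to 80.7 and 68.0 CPM in SETD2-mutant cells, 58.0 and 58.6 CPM in parental cells, and 264.7 and 269.1 CPM in the library. All 4 cell samples lay below both library samples, though the share of all genes with such a separation was not counted. The change was −2.13 (SE 0.304) in SETD2-mutant cells and −2.33 (SE 0.272) in parental cells, with 10 of 10 guides down in each line. EdgeR with RRA gave adjusted p-values of 3.15e-05 in SETD2-mutant and 2.93e-08 in parental cells.

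ATRX, the remodeller that works with DAXX (chromosome X, 77504880 to 77786216), had the shallowest loss of the 6 depleted genes. Its levels were 254.2 and 263.7 CPM in SETD2-mutant cells, 252.2 and 258.2 CPM in parental cells, and 501.0 and 496.5 CPM in the library. Neither line's samples overlapped the library, which was likewise not counted over all genes. The change was −1.12 (SE 0.249) in SETD2-mutant cells (edgeR and RRA, adjusted p = 3.93e-06) and −1.26 (SE 0.294) in parental cells (adjusted p = 7.34e-06). In both lines 9 of 10 guides were down and the same guide, HZD_EPI_00517, was up, by 0.13 in SETD2-mutant cells and 0.16 in parental cells. The largest loss was −2.87 in SETD2-mutant cells and −2.82 in parental cells, for the guide HZD_EPI_00514 in each line.

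HIRA, the scaffold of the replication-independent H3.3 complex (chromosome 22, 19330698 to 19431733), was more uneven among its guides. Its levels were 75.1 and 82.6 CPM in SETD2-mutant cells, 72.7 and 71.1 CPM in parental cells, and 150.0 and 156.4 CPM in the library. The change was −1.71 (SE 0.596, 8 of 10 guides down) in SETD2-mutant cells and −1.60 (SE 0.406, 9 of 10 guides down) in parental cells. EdgeR with RRA gave adjusted p-values of 0.0323 in SETD2-mutant and 0.00764 in parental cells. Guide HZD_EPI_02701 had 9 and 0 counts in SETD2-mutant cells, 9 and 42 in parental cells, and 295 and 304 in the library, while HZD_EPI_02702 had 674 and 727, 994 and 821, and 908 and 835 in the same order. HIRA guides thus spanned changes of −5.65 to 0.24 in SETD2-mutant cells, with the lower end set by a guide close to 0 counts, and −3.79 to 0.10 in parental cells. The SETD2-mutant call was lost without SETD2-mutant replicate 1 (adjusted p = 0.154 by edgeR and RRA) and without SETD2-mutant replicate 2 (0.133). At an RRA rank share limit of 0.1 it was lost in SETD2-mutant cells (0.171) and in parental cells (0.0683). UBN1, the partner of HIRA that binds H3.3, was not called in either line, at 0.16 (SE 0.244) in SETD2-mutant and 0.19 (SE 0.134) in parental cells; CABIN1 and UBN2 were not analysed here.

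The ASF1 paralogs, which supply histones to both routes, showed small changes. ASF1A (chromosome 6, 118894152 to 118909171) stood at 367.2 and 366.7 CPM in SETD2-mutant cells, 384.1 and 378.3 CPM in parental cells, and 389.0 and 387.0 CPM in the library. The change was −0.13 (SE 0.0893) in SETD2-mutant cells and −0.11 (SE 0.0952) in parental cells, and RRA called neither. Summed counts called ASF1A depleted in both lines, at −0.17 in SETD2-mutant and −0.12 in parental cells (edgeR, adjusted p = 0.00151 and 0.00949). Its guides kept close together, from −0.58 to 0.34 in SETD2-mutant cells and from −0.67 to 0.28 in parental cells.

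ASF1B (chromosome 19, 14119512 to 14136589) stood at 231.2 and 215.4 CPM in SETD2-mutant cells, 223.7 and 213.9 CPM in parental cells, and 175.1 and 179.8 CPM in the library. Each of the 4 cell samples lay above both library samples, though how many of all genes did so was not counted. The change was 0.24 (SE 0.165, 8 of 10 guides up) in SETD2-mutant cells and 0.18 (SE 0.218, 7 of 10 guides up) in parental cells, relative to other genes, and it turned to −0.68 and −0.59 when samples were scaled on the guides labelled dummyguide. For enrichment, edgeR with RRA gave adjusted p-values of 0.51 in SETD2-mutant and 0.323 in parental cells. Limma on gene means called ASF1B enriched (adjusted p = 0.0136 in SETD2-mutant and 0.0434 in parental cells), as it did 23.8% of all genes in each line. Summed counts called it too (edgeR, adjusted p = 0.00346 in SETD2-mutant and 0.0081 in parental cells), as they did 30.2% and 29.5% of all genes. Of the ASF1B guides, edgeR called 5 higher and 2 lower in SETD2-mutant cells, where it called 22.2% of all guides higher and 23.7% lower. In parental cells it called 4 of them higher and 2 lower, where it called 18.9% and 21.1% of all guides.

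The subunits of CAF-1 were depleted together in parental cells. CHAF1A, the large subunit (chromosome 19, 4402640 to 4450830), stood at 143.5 and 150.0 CPM in SETD2-mutant cells, 152.1 and 149.6 CPM in parental cells, and 339.0 and 341.8 CPM in the library. The change was −1.53 (SE 0.309) in SETD2-mutant cells (edgeR and RRA, adjusted p = 4.64e-06) and −1.48 (SE 0.263) in parental cells (adjusted p = 1.59e-05). All 10 guides were down in each line, and edgeR called each of them lower.

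CHAF1B, the middle subunit of CAF-1 (chromosome 21, 36385392 to 36419015), stood at 58.3 and 57.7 CPM in SETD2-mutant cells, 45.0 and 43.3 CPM in parental cells, and 125.7 and 123.2 CPM in the library. The change was −2.26 (SE 0.989, 8 of 10 guides down) in SETD2-mutant cells, which missed the threshold (edgeR and RRA, adjusted p = 0.0798). Parental cells gave −1.95 (SE 0.595, 10 of 10 guides down), which was called (adjusted p = 0.00289). Guide HZD_EPI_01135 carried much of both means, with 0 and 1 counts in SETD2-mutant cells, 7 and 6 in parental cells, and 563 and 532 in the library. Without that guide the mean was −1.45 in SETD2-mutant cells and −1.46 in parental cells. CHAF1B had the widest spread among guides of the 8 genes, with an SD of 3.13 in SETD2-mutant and 1.88 in parental cells, where the median SD of genes with 10 guides was 0.685 and 0.62. It passed the threshold in SETD2-mutant cells under 5 of 18 alternatives. By edgeR and RRA it did so with only the groups compared in the fit (adjusted p = 0.0439). It also did so without SETD2-mutant replicate 1, at −2.16, or without parental replicate 2, at −2.26. Limma on gene means (adjusted p = 1.68e-06) and edgeR on summed counts (adjusted p = 1.01e-06) called it too, as they did 38.1% and 32.7% of all genes.

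SSRP1, the subunit that defines FACT together with SUPT16H (chromosome 11, 57325988 to 57335892), was depleted in both lines. Its levels were 73.3 and 75.9 CPM in SETD2-mutant cells, 86.6 and 87.1 CPM in parental cells, and 209.3 and 202.4 CPM in the library. The change was −2.02 (SE 0.506, 10 of 10 guides down) in SETD2-mutant cells and −1.52 (SE 0.353, 9 of 10 guides down) in parental cells. EdgeR with RRA gave adjusted p-values of 0.0166 in SETD2-mutant and 0.000619 in parental cells. Its guides were uneven: HZD_EPI_06778 stood at −4.03 in SETD2-mutant and −1.84 in parental cells, whereas HZD_EPI_06782 stood at −0.20 and −0.03. SUPT16H was depleted by −2.70 (SE 0.487) in SETD2-mutant and −2.66 (SE 0.514) in parental cells.

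**Figure D2:**
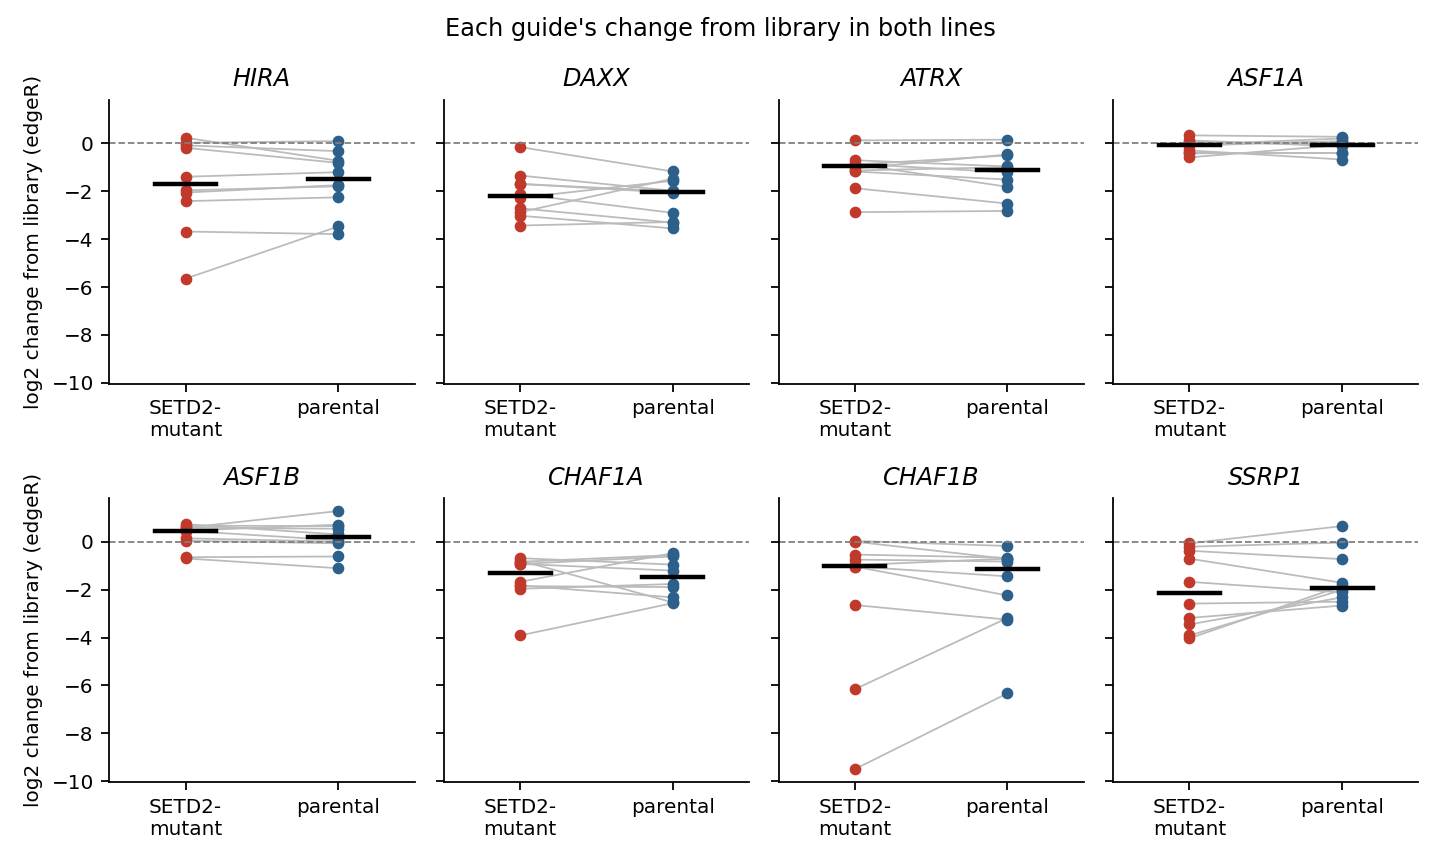
Log2 change from library by edgeR (vertical axis) of each of the 10 guides per gene in SETD2-mutant and parental cells, with a grey line joining the values of 1 guide and a black bar at the median. DAXX and CHAF1A guides lie below 0 in both lines, ASF1A guides stay near 0, and 1 CHAF1B guide reaches −9.50 in SETD2-mutant cells on 0 and 1 counts.

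SETD2-mutant against parental cells asks whether losing a chaperone harms SETD2-mutant cells more, or less, than parental cells. None of the 8 genes was called by edgeR and RRA, with 0 depleted, where 1.28% of all genes were, and 0 enriched, where 1.03% were. Before adjustment the RRA p for depletion was under 0.05 in 1 of the 8, SSRP1 (0.0386), and that for enrichment in 0. The share of all genes under that limit was not counted. Limma called 1 depleted and 0 enriched, where it called 22.4% and 12.8% of all genes, and summed counts called 1 depleted and 2 enriched, where they called 21.2% and 20.0% of all genes. The 8 changes ran from −0.49 to 0.20 and their median was −0.04, as was that of all genes. Of the 80 guides, edgeR called 14 lower (17.5%) and 9 higher (11.2%), against 12.8% lower and 11.5% higher among all guides. A gene that misses the threshold is not shown to act alike in both lines, and the SE of each difference is given for that reason.

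SSRP1 had the lowest difference of the 8, −0.49 (SE 0.324, 7 of 10 guides down), and was not called (edgeR and RRA, adjusted p = 0.605). Gene means of log2 change from the library were −2.21 and −1.89 in SETD2-mutant samples and −1.56 and −1.49 in parental samples, so both SETD2-mutant samples lay below both parental ones, as they did for 38.8% of all genes. Guides HZD_EPI_06778, HZD_EPI_06775 and HZD_EPI_06776 fell by 2.19, 1.90 and 1.13, while HZD_EPI_06779 rose by 1.01. Leaving out any 1 guide, the mean difference ran from −0.66 to −0.30. Limma on gene means called SSRP1 depleted at −0.52 (adjusted p = 0.00941) and edgeR on summed counts at −0.21 (adjusted p = 0.0142). Its FACT partner SUPT16H differed by −0.03 (SE 0.147) between the lines. Ribosomal protein genes, whose loss growing cells tolerate poorly, had a median change of −3.95 in SETD2-mutant and −3.46 in parental cells. With SETD2-mutant changes scaled to equal ribosomal dropout, the SSRP1 difference was −0.27 (limma for each guide and RRA, adjusted p = 0.865).

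DAXX and ATRX lay on the other side. For DAXX the difference was 0.20 (SE 0.237, 7 of 10 guides up) and for ATRX 0.14 (SE 0.147, 5 of 10 guides up). Gene means from the library were −2.03 and −2.25 in SETD2-mutant samples against −2.37 and −2.31 in parental samples for DAXX. They were −1.13 and −1.12 against −1.30 and −1.23 for ATRX. In both genes the SETD2-mutant samples lay above the parental ones, as they did for 26.9% of all genes. For enrichment, edgeR with RRA gave an adjusted p of 1 for DAXX and 0.918 for ATRX, and the ATRX difference turned to −0.01 with dummyguide scaling. The DAXX difference was 0.06 without SETD2-mutant replicate 1, 0.05 with dummyguide scaling and 0.46 at equal ribosomal dropout. DAXX guides spanned −1.40 for HZD_EPI_01508 to 1.02 for HZD_EPI_01502, each called by edgeR on its own. Summed counts called DAXX enriched (0.35, adjusted p = 0.00814 by edgeR).

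Guides of the CAF-1 subunits moved both ways, as did those of DAXX, ATRX and SSRP1. EdgeR called 2 CHAF1A guides lower and 1 higher, and 2 CHAF1B guides lower and 2 higher. Among all guides it called 12.8% lower and 11.5% higher between the lines. CHAF1A differed by −0.05 (SE 0.277, 5 of 10 guides down), with HZD_EPI_01123 at 9.65 and 10.1 CPM in SETD2-mutant and 2.19 and 3.73 CPM in parental cells. Its guide HZD_EPI_01128 went the opposite way, with 7.5 and 7.1 CPM in SETD2-mutant and 17.2 and 16.3 CPM in parental cells. The replicates of a line resembled each other at both guides. For CHAF1B the mean difference was −0.31 (SE 0.479) while the median was 0.17 and 7 of 10 guides were up. Its mean was carried by HZD_EPI_01135 and HZD_EPI_01136, at −3.17 and −2.98, both on few counts. On summed counts, which give weight to abundant guides, edgeR called CHAF1B enriched (0.40, adjusted p = 0.00285), opposite in sign to the mean over guides.

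Mean differences were small for HIRA and the ASF1 paralogs, but HIRA guides ran from −2.18 to 0.96. HIRA stood at −0.11 (SE 0.262, 6 of 10 guides down), ASF1A at −0.02 (SE 0.0815) and ASF1B at 0.06 (SE 0.108). ASF1A had the tightest guides of the 8, and its difference leaving out any 1 guide stayed between −0.07 and 0.03. The HIRA difference moved from −0.23 to 0.12 in the same way, with the top value reached without HZD_EPI_02701, the guide at 0 counts in 1 SETD2-mutant sample. The signs of HIRA and ASF1B turned under at least 1 other setting, and ASF1A reached 0.00.

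**Figure D3:**
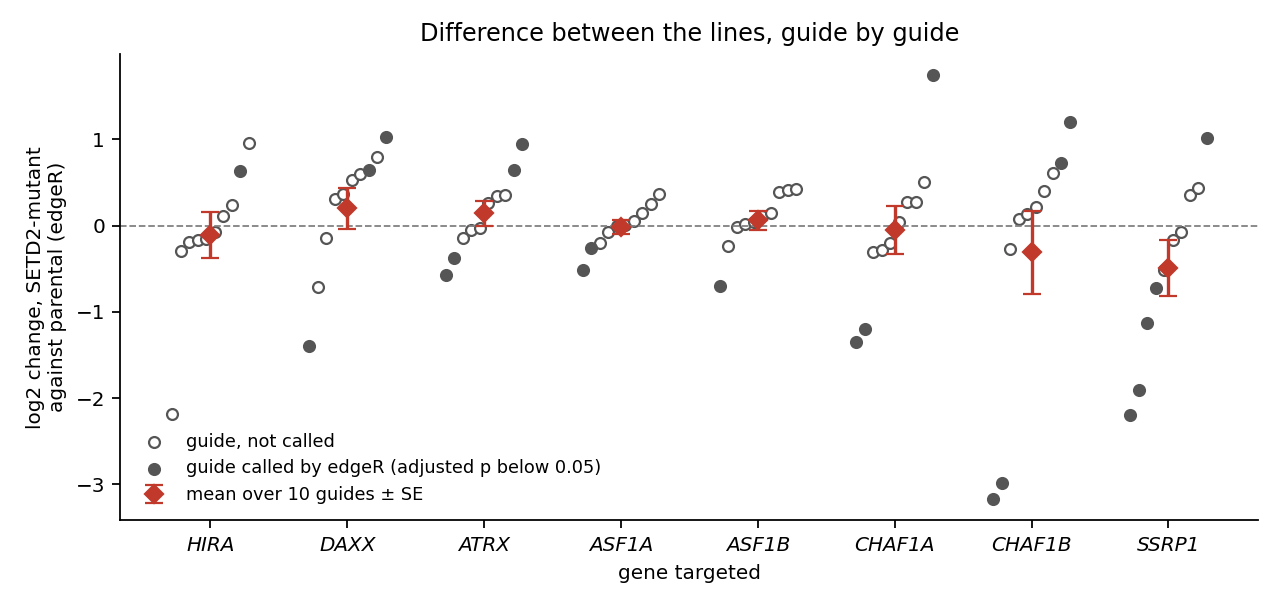
Log2 change of each guide in SETD2-mutant against parental cells by edgeR (vertical axis), by gene, with filled points for guides called by edgeR and diamonds for the mean over 10 guides with SE bars. Guides of DAXX, ATRX, CHAF1A, CHAF1B and SSRP1 were called in both directions, where 12.8% of all guides were called lower and 11.5% higher. The 8 gene means lie between −0.49 and 0.20.

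Other histone chaperones and partners were taken from a list of 38 genes, of which 28 were measured. The list was chosen with earlier results of these data known, so its counts cannot test for an excess over all genes. In SETD2-mutant cells 9 of 28 were depleted and 0 enriched against the library by edgeR and RRA, with a median of −0.55, where 9.04% and 1.11% of all genes were and the median was −0.05. In parental cells 9 were depleted and 1 enriched, with a median of −0.52, where 9.90% and 1.11% of all genes were and the median was −0.01. Before adjustment 11 had a p under 0.05 for depletion and 2 for enrichment in SETD2-mutant cells, and 11 and 3 in parental cells. The share of all genes under that limit was not counted. Limma called 22 depleted and 2 enriched in SETD2-mutant cells, where it called 38.1% and 23.8% of all genes. In parental cells it called 19 and 4, where it called 31.5% and 23.8% of all genes. Summed counts called 21 and 4 in SETD2-mutant cells, where they called 32.7% and 30.2% of all genes. In parental cells they called 19 and 7, where they called 30.3% and 29.5%. The 9 were the same genes in both lines. PCNA, the clamp that holds CAF-1, changed by −3.57 (SE 0.321) in SETD2-mutant and −3.68 (SE 0.525) in parental cells. RBBP4, the small subunit of CAF-1 that also serves PRC2 and NuRD, changed by −3.16 (SE 0.714) and −2.17 (SE 0.456). TONSL, which binds newly made H4 at damaged forks, changed by −2.53 and −2.96 in the same order, and SUPT6H, a chaperone of elongating RNA polymerase II, by −3.21 and −2.43. The nucleolar chaperone NPM1 changed by −2.65 and −2.33, and CDAN1, which holds ASF1 in the cytoplasm, by −2.08 and −2.23. HJURP, the chaperone of the centromeric variant CENP-A, changed by −2.15 and −1.82, and VPS72, which delivers the variant H2A.Z, by −1.61 and −1.50. The ninth was SUPT16H, described above. Adjusted p-values by edgeR and RRA for these genes ran up to 0.0491, for VPS72 in SETD2-mutant cells, a call lost under 5 of 18 alternatives. In parental cells the VPS72 call was lost without parental replicate 2 (0.0902) and with the RRA rank share limited to 0.1 (0.436). The CDAN1 call was lost in SETD2-mutant cells without library replicate 2 (0.0541), with dummyguide scaling (0.102) and at that limit (0.196), and in parental cells with dummyguide scaling (0.122).

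Between the lines 2 of the 28 were depleted and 0 enriched by edgeR and RRA, with a median of −0.12. Among all genes 1.28% were depleted and 1.03% enriched, with a median of −0.04. These shares give no test of the list, which was chosen with earlier results of these data known. Before adjustment 4 had a p under 0.05 for depletion and 1 for enrichment, a share not counted over all genes. Limma called 9 depleted and 2 enriched, where it called 22.4% and 12.8% of all genes. Summed counts called 8 and 5, where they called 21.2% and 20.0% of all genes. SETDB1, which methylates lysine 9 of histone H3, changed by −1.12 (SE 0.237, 10 of 10 guides down, adjusted p = 0.00519 by edgeR and RRA). Its gene means were −0.24 and −0.17 in SETD2-mutant samples and 0.96 and 0.77 in parental samples. Both SETD2-mutant samples thus lay below both parental ones, as they did for 38.8% of all genes. The enrichment of SETDB1 in parental cells was the 1 enriched call, lost without parental replicate 2. RBBP4 changed by −0.98 (SE 0.66, 7 of 10 guides down, adjusted p = 0.0418 by edgeR and RRA), with gene means of −3.22 and −2.96 in SETD2-mutant and −2.17 and −2.21 in parental samples. The RBBP4 call was lost with only the groups compared in the fit (adjusted p = 0.203 by edgeR and RRA). Leaving out SETD2-mutant replicate 1, SETD2-mutant replicate 2 or parental replicate 1 lost it too. At equal dropout of ribosomal proteins, with limma for each guide and RRA, it was also lost (adjusted p = 0.378).

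**Figure D4:**
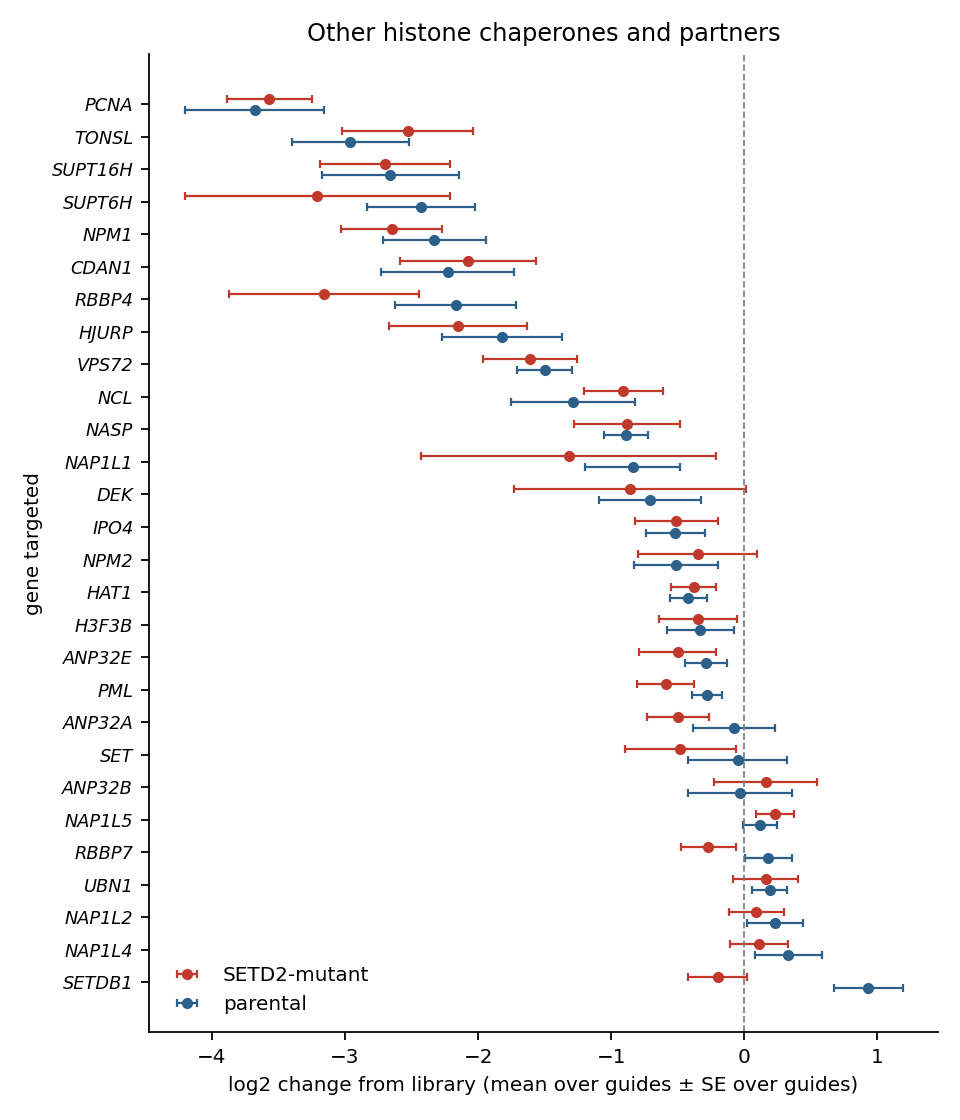
Mean log2 change from library over guides (horizontal axis, bars are SE over guides) of the 28 other measured chaperones and partners in SETD2-mutant and parental cells. PCNA lies lowest in both lines, at −3.57 and −3.68, and SETDB1 shows values on opposite sides of 0, at −0.20 in SETD2-mutant and 0.93 in parental cells.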

How the data were processed

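The authors deposited raw counts per guide, whole numbers with a different total in each of the 6 samples. Per the labels' protocols, sgRNAs were PCR-amplified out of cell DNA and sequenced (75 bp, 1 end); MAGeCK and hg38 are named without role or version, per the submitters' processing notes. The 100 guides labelled dummyguide, 0.107% to 0.202% of counts, were left out of totals and tests. Of 71526 gene guides, 71470 averaged at least 30 library counts and were kept. EdgeR 4.0.16 in R 4.3.3 fitted all 6 samples by group (TMM, glmQLFit robust, glmQLFTest). Robust rank aggregation joined the guide p-values of each gene with a rank share limit of 0.25 and its exact null distribution, and adjusted by Benjamini-Hochberg over 7090 genes in each direction. The procedure was tested on simulated counts. Alternatives used DESeq2 1.42.0, limma 3.58.1 on gene means of log2 CPM (prior count 2), summed counts, other scalings, filters and sample sets. In the equal-dropout setting, SETD2-mutant changes were multiplied by 0.877 so that 51 ribosomal protein genes had the parental median. There limma on log2 CPM tested each guide in place of edgeR, before RRA.

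The chaperones and the partner list were chosen with earlier results of these data known. All 8 chaperones are named, with those partners that were called in a comparison or are direct partners (UBN1, SUPT16H, RBBP4, PCNA), and for each depleted chaperone genes among the 3 nearest in pattern. RefSeq (GRCh38.p14) matched all 8 symbols. The replicates differed by more than counting error, with a chi-square per degree of freedom of 1.37 in the library, 14.1 in parental and 12.9 in SETD2-mutant samples. Guide sequences and cut sites were not analysed here.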

Additional observations from a re-analysis of the deposited data

How the results depend on the processing

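CHAF1A, DAXX, ATRX and SSRP1 remained depleted against the library in both lines under all 18 alternatives, as did CHAF1B in parental cells. HIRA kept its call under 13 of 18 in SETD2-mutant and 16 of 18 in parental cells, with dummyguide scaling among those that lost it (adjusted p = 0.331 and 0.063 by edgeR and RRA). That scaling moved all genes by −0.92 in SETD2-mutant cells, −0.78 in parental cells and −0.15 between the lines, and left 35 genes enriched in SETD2-mutant cells, where TMM gave 79. Limma on gene means and summed counts called far more genes: 1585 and 1503 depleted and 910 and 1417 enriched between the lines, where RRA gave 91 and 73. They called 2703 and 2320 depleted and 1690 and 2138 enriched in SETD2-mutant cells, where RRA gave 641 and 79, and 2234 and 2149 depleted and 1689 and 2092 enriched in parental cells, where RRA gave 702 and 79. Among chaperones each called 1 depleted between the lines and 1 enriched in each line against the library, and summed counts called 2 enriched between the lines. At equal dropout of ribosomal proteins, with limma for each guide and RRA, 72 genes were depleted and 102 enriched between the lines. Of these calls 41.4% were depleted, where edgeR and RRA on the changes as fitted gave 55.5%. Scaling and guide test changed together here, so what each contributed cannot be told apart.

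Several differences between the lines changed sign. HIRA stood at 0.14 on summed counts, 0.10 at equal dropout and −0.60 to 0.05 leaving out 1 sample. ASF1A was 0.00 by the median over guides and −0.06 to 0.00 leaving out 1 sample. ASF1B was −0.09 with dummyguide scaling and −0.01 to 0.11 leaving out 1 sample, and against the library −0.68 in SETD2-mutant and −0.59 in parental cells with that scaling. CHAF1A was 0.12 at equal dropout and −0.22 to 0.04 leaving out 1 sample. CHAF1B was 0.40 on summed counts, 0.17 by the median, 0.11 at equal dropout and −0.66 to −0.19 leaving out 1 sample, and ATRX −0.01 with dummyguide scaling. Leaving out 1 sample gave 50 to 85 enriched genes in SETD2-mutant cells, with 50 reached without SETD2-mutant replicate 1. The causes were not tested.

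With the replicate block there were 88 depleted and 84 enriched genes between the lines, and it changed no chaperone call. Same-numbered samples did not deviate together across guides (Pearson r of −0.005, −0.0025 and −0.00505 between groups), so the replicate numbers were not treated as pairs. Shared handling that acts on few guides would not show in these values.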

Other observations

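For each depleted chaperone, the genes of the table with the most similar pattern were found by Euclidean distance over 4 values, the mean log2 changes from library of the parental and SETD2-mutant replicates. For DAXX the nearest was CCNH, the cyclin of the CDK-activating kinase, at a distance of 0.0734, followed by XRCC3, a homologous recombination gene, at 0.129. For ATRX it was MDC1, a DNA damage adaptor, at 0.101. For CHAF1A the nearest was CYC1, a subunit of respiratory complex III, at 0.153, and then KAT7, a histone acetyltransferase, at 0.2. For CHAF1B it was BCL2L1, an inhibitor of apoptosis, at 0.131, and for HIRA it was EFTUD1, at 0.103, ahead of the kinase MTOR at 0.133. SSRP1 lay farther from any gene than the other depleted chaperones, with MYBBP1A nearest at 0.205. No other chaperone of the list was among the 3 nearest genes of any of the 6. The distances describe amounts of growth loss in these samples and carry no test.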
